A study of Solanum tuberosum with 36 samples.

Results

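The leaves of the drought-tolerant potato cultivar Gwiazda were compared with those of the drought-sensitive cultivar Oberon on day 6 after watering was stopped. The comparison holds 3 Gwiazda and 3 Oberon libraries, 6 of the 36 RNA-seq libraries of a study of 4 cultivars on days 0, 6 and 10. Gwiazda and Oberon are related by descent, and drought was imposed on pot-grown plants that had begun to form tubers, so both groups had the same treatment on day 6 and the watered plants of day 0 served as their baseline. Leaves of the upper part of 3 plants were sampled per cultivar and day and gave 3 biological replicates, although the labels do not say whether a library stands for a single plant. Tajfun and Owacja, another tolerant and sensitive pair, are used only for comparison on day 6. The question of the comparison is which transcripts set the tolerant cultivar apart from the sensitive one in early drought. The members of both groups were taken from the sample labels. The labelled tissue, leaf, was not checked against markers, because no marker gene of leaf cell types is named for these identifiers.

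When soil dries, abscisic acid accumulates in leaves, stomata close, and genes for protective proteins such as dehydrins and other late embryogenesis abundant proteins are switched on. Kinase cascades and phospholipases carry the signal, lysine breakdown and fermentation genes often respond, and many genes of growth and photosynthesis are turned down. RAB18, a dehydrin induced by abscisic acid, is a common marker of the response. The tables list genes by identifier only. Names are those the study gave to a small number of them, and roles are textbook background, mostly known from Arabidopsis.

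The deposited tables give the mean of scaled reads in each group, and the reads of every single library were recovered from these unrounded means. A scaled read count is the number of reads of a gene divided by the size factor of its library. Summed over genes, the recovered counts of the 6 libraries came to 40437223, 38320783 and 35693914 reads in Gwiazda and 37651145, 36838791 and 35001767 reads in Oberon. The libraries of a group are called a, b and c in this order of total reads, because the deposited means carry no replicate numbers and the libraries were not matched to the numbered replicates of the labels. The sums exceed the mapped reads that the study lists for these groups. By that list every Oberon library of day 6 had a smaller share of mapped reads than every Gwiazda library of that day. A Gwiazda library of day 6 had the largest share of reads mapped to several loci in the study. How mapping bears on the cultivar differences was not tested. The Gwiazda libraries correlated with each other at r = 0.88 to 0.90 and the Oberon libraries at r = 0.848 to 0.928 (log2 of scaled reads + 1, across 18487 genes, which are not independent replicates), whereas pairs of 1 Gwiazda and 1 Oberon library correlated at r = 0.778 to 0.878. Oberon library c stood apart. It had reads for 18094 genes, against 20486 and 21064 in Oberon libraries a and b, and 19.6% of the genes lay more than 2-fold above or below both other Oberon libraries, against 6.82% and 9.73% for libraries a and b. Over genes with at least 100 scaled reads, the median SD of a gene between libraries was 0.32 on the log2 scale in Gwiazda and 0.43 in Oberon, which were the 2 widest of the 12 groups of the study.

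Against this spread few single genes differed. Of 18487 genes tested, 3 were higher and 3 were lower in Gwiazda at an adjusted p below 0.05 (limma on recovered reads, Benjamini-Hochberg adjustment), which is 0.0162% in each direction and 0.0325% of the genes tested in all. At an unadjusted p below 0.05 there were 1228 genes higher and 1463 lower, together 14.6% of the genes tested, and the 3 Gwiazda libraries did not overlap with the 3 Oberon libraries in 22.9% of the genes. The count of 6 depended on how the spread was estimated. It was 188 with limma trend and 654 when the libraries of day 0 shared the fit, and all 6 genes were among the calls of both. Without Oberon library c 3 genes remained, and without any other single library none passed the limma test, with 1760 to 2746 genes at an unadjusted p below 0.05 over the 6 reduced sets. On day 0 the same test called 389 genes between Gwiazda and Oberon (2.04% of those tested) and on day 10, with 3 Gwiazda and 2 Oberon libraries, 326 (1.76%). Between Tajfun and Owacja on day 6 it called 2151 (11.2%).

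All 6 genes were separated without overlap between the cultivars. All 6 had a difference of the same sign on days 0 and 10, and 4 of them passed the test on day 0 and 5 on day 10, where 2.04% and 1.76% of the genes tested did. The files pair none of them with a name, so 4 are given by identifier. PGSC0003DMG400015225 had 1532, 1589 and 1443 scaled reads in Gwiazda, against 81.3, 70.5 and 150 in Oberon, 16.3-fold higher with an SE of 0.35 on the log2 scale (limma adjusted p = 0.0194). It also differed in watered leaves, with 1896 ± 331 scaled reads in Gwiazda and 61.0 ± 41.5 in Oberon on day 0 (SD, n = 3 each, log2 difference 5.16, limma adjusted p = 0.00802), and also between Tajfun and Owacja on day 6 (log2 difference 4.52, limma adjusted p = 0.000116). Its difference was thus already there before drought. PGSC0003DMG400016442 had 2586, 2230 and 1917 scaled reads in Gwiazda, against 394, 244 and 314 in Oberon (log2 difference 2.84 ± 0.29, limma adjusted p = 0.0240). In contrast to the first gene, its transcript rose in Gwiazda, to 2244 ± 335 scaled reads on day 6, against 690 ± 278 on day 0 (limma adjusted p = 0.00591), while Oberon had 318 ± 75.2 on day 6 and 322 ± 53.4 on day 0 (limma adjusted p = 0.978). The change of the cultivar difference between the days, 1.83 on the log2 scale, did not pass the test (limma adjusted p = 0.534).

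Of the lower genes, PGSC0003DMG400007382 had 229, 303 and 225 scaled reads in Gwiazda, against 2160, 2000.4 and 1787 in Oberon (log2 difference -2.98 ± 0.27, limma adjusted p = 0.0194). It had nearly the same difference on day 0 (log2 difference -3.35) and on day 10 (log2 difference -3.05). Tajfun and Owacja, whose libraries were scaled separately, had 1777 ± 110 and 1888 ± 326 scaled reads of it on day 6 (SD, n = 3 each). PGSC0003DMG400025407 had 527, 637 and 557 scaled reads in Gwiazda, against 3478, 3213 and 4418 in Oberon (log2 difference -2.68 ± 0.24, limma adjusted p = 0.0194). It was near absent in watered Gwiazda leaves, with 0, 44.7 and 0 scaled reads on day 0, and it rose by day 6 in Gwiazda (limma adjusted p = 0.0130) and in Oberon (limma adjusted p = 0.00227). The remaining genes called were higher in Gwiazda by a log2 difference of 2.71 and lower by a log2 difference of -2.54.

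RAB18, the marker of the drought response, rose by day 6 in both cultivars, and the groups overlapped on day 6. It had 1853, 3437 and 905 scaled reads in Gwiazda, against 1887, 2019 and 2006 in Oberon. The 3 Oberon libraries were nearly alike, whereas the Gwiazda libraries lay on both sides of them. The rise was to 2065 ± 1279 scaled reads in Gwiazda on day 6, against 84.1 ± 57.9 on day 0 (SD, n = 3 each, limma adjusted p = 0.00535), and to 1971 ± 72.9 in Oberon on day 6, against 59.4 ± 20.1 on day 0 (limma adjusted p = 0.000389). Between the cultivars RAB18 had a log2 difference of -0.14 ± 0.43 on day 6 (limma adjusted p = 0.905). Without Gwiazda library c, which had the lowest RAB18 level, this difference was 0.36. Cyclophilin, a protein-folding enzyme used as a control, had 25617, 31448 and 14459 scaled reads in Gwiazda and 28645, 21468 and 41946 in Oberon, with overlapping groups and a log2 difference of -0.39 ± 0.37. The 8 genes that the study chose as stable in these and the other libraries had log2 differences of 0.01 to 0.34 with a median of 0.08. The median size was 0.47 over all genes tested. None of the 8 passed an unadjusted p of 0.05, where 14.6% of all genes tested did, as their choice implies. In 1 of them the groups did not overlap, where 22.9% of all genes tested did not. The positive sign of all 8 did not hold when the libraries were scaled by their total reads, where 4 of them turned negative.

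The study drew 9 genes from this pair of cultivars by their RNA-seq values on days 0, 6 and 10. It kept only those whose profiles were also seen by RT-PCR, a measure not re-examined here. As the day 6 libraries took part in that choice, the values of these genes describe the selection and are not independent evidence of its direction. None of the 9 passed an adjusted p of 0.05 on day 6. All had an unadjusted p below 0.05, 6 of them higher and 3 lower in Gwiazda, where 6.64% and 7.91% of all genes tested were. In 8 of the 9 the groups did not overlap, 5 higher and 3 lower in Gwiazda, where 11.4% and 11.5% of all genes tested did not. Their median log2 difference was 1.29, beside 0.00 over all genes tested. In bulk leaf tissue fewer cells of a type and less RNA per cell cannot be told apart.

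The first of the higher genes is CAP160, a cold-acclimation protein whose Arabidopsis counterpart is a hydrophilic protein switched on by abscisic acid and desiccation. To show which transcripts are meant, the RT-PCR primers that the study designed are printed for CAP160, for the adenylyl cyclase-associated protein and for the cytochrome P450 described further on.
CAP160, forward: ccgaaactcgcgaaactaag
CAP160, reverse: aaaccggagcaagttttcctg
adenylyl cyclase-associated protein, forward: ctgtcgaaagctccttcacc
adenylyl cyclase-associated protein, reverse: taggagctgagccctgacat
cytochrome P450, forward: tcgaaccctaggactcatgg
cytochrome P450, reverse: agtaaatcgcttcccagcaa

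CAP160 (PGSC0003DMG400014293) had 46940, 33576 and 21246 scaled reads in Gwiazda, against 8741, 9268 and 11145 in Oberon. Even the lowest Gwiazda library was above the highest Oberon library, and the log2 difference was 1.74 ± 0.31 (limma adjusted p = 0.103). On day 0 the groups were also apart, with 85.3, 76.3 and 378 scaled reads in Gwiazda, against 35.1, 32.7 and 6.73 in Oberon. The log2 difference was then 2.61 ± 1.04 (limma adjusted p = 0.236). Its change by day 6, -0.90, did not pass the test (limma adjusted p = 0.869). The transcript rose by 7.96 on the log2 scale in Gwiazda, to a mean of 33921 scaled reads on day 6, against 180 on day 0 (limma adjusted p = 0.000247). It rose by 8.85 in Oberon, to 9718 scaled reads on day 6, against 24.8 on day 0 (limma adjusted p = 0.000422). On day 10 the means were lower, 7289 ± 877 scaled reads in Gwiazda and 2607 ± 764 in Oberon (SD, n = 3 and n = 2), and the difference between the cultivars then passed the test (log2 difference 1.51, limma adjusted p = 0.0370).

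Among the signalling genes, phospholipase C, an enzyme that cleaves membrane phospholipids into second messengers, had 715, 839 and 388 scaled reads in Gwiazda, against 242, 354 and 178 in Oberon. MAPKKK15, a kinase at the head of a mitogen-activated protein kinase cascade, had 291, 145 and 148 scaled reads in Gwiazda, against 77.3, 75.7 and 118 in Oberon. Both were higher in every Gwiazda library, by log2 differences of 1.29 ± 0.41 and 1.09 ± 0.45 (limma adjusted p = 0.222 and 0.318). Both rose by day 6 in Gwiazda and in Oberon (limma adjusted p between 0.00502 and 0.0416).

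The remaining higher genes, of metabolism and of ATP binding, had the same order of means. Aminoadipic semialdehyde synthase, which carries out the first steps of lysine breakdown, had 793, 436 and 209 scaled reads in Gwiazda, against 143, 117 and 139 in Oberon (log2 difference 1.67 ± 0.54, limma adjusted p = 0.229). Alcohol dehydrogenase, an enzyme of ethanol fermentation, had 859, 1918 and 446 scaled reads in Gwiazda, against 186, 313 and 286 in Oberon (log2 difference 1.82 ± 0.56, limma adjusted p = 0.216). On day 0 it was at 0, 0 and 54.3 in Gwiazda and at 0 in all 3 Oberon libraries, and its rise by day 6 passed the test in Oberon (limma adjusted p = 0.0127) but not in Gwiazda (limma adjusted p = 0.0826), a difference between the responses that was itself not past the test (adjusted p = 0.995). The ATP binding protein, PGSC0003DMG400012174, was the only one of the 9 genes whose groups overlapped, with 13037, 12218 and 4668 scaled reads in Gwiazda, against 3306, 1701 and 7776 in Oberon (log2 difference 1.36 ± 0.58, limma adjusted p = 0.335). Its lowest Gwiazda library was c and its highest Oberon library was c.

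**Figure D1:**
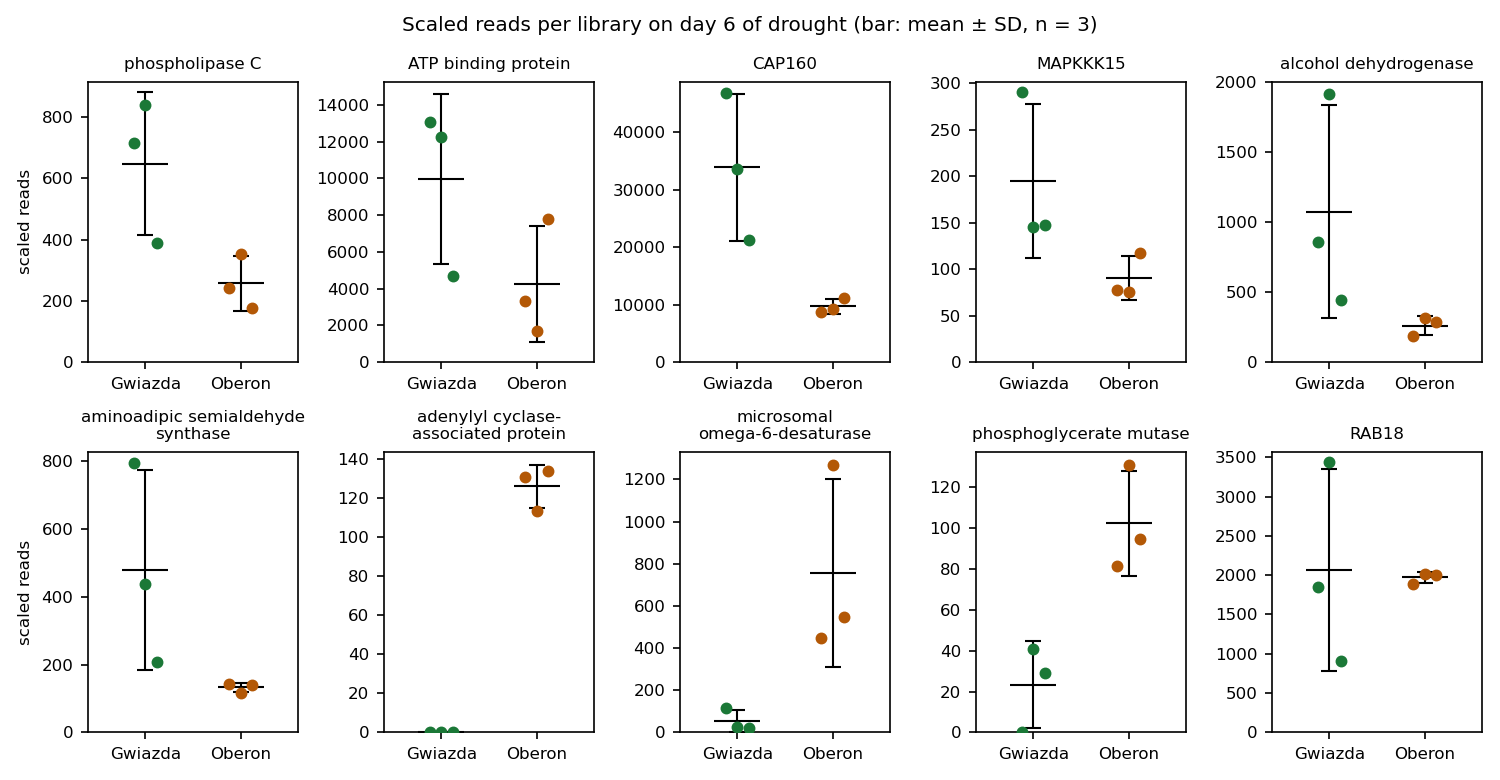
Scaled reads of the 9 genes drawn from this pair and of RAB18 in each library on day 6 (y axis, linear from 0), with Gwiazda (green, left) and Oberon (orange, right); points are the libraries a, b and c from left to right and bars the mean ± SD, n = 3. The groups overlap for the ATP binding protein and RAB18, and the adenylyl cyclase-associated protein is at 0 in all 3 Gwiazda libraries.

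The 3 genes lower in Gwiazda were separated without overlap. The adenylyl cyclase-associated protein, a regulator of actin filaments, had 0 scaled reads in all 3 Gwiazda libraries, against 131, 114 and 134 in Oberon. With 3 reads per library as the floor, it was 42.0-fold lower in Gwiazda, a value set by that floor and not an estimate (limma adjusted p = 0.114). Nearly all recovered counts were even, as both mates of a fragment are counted, so a floor in fragments would give a smaller fold. On day 0 both cultivars had it, at 144 ± 61.8 scaled reads in Gwiazda and 180 ± 43.6 in Oberon (SD, n = 3 each), and it fell by day 6 in Gwiazda (limma adjusted p = 0.0335), while Oberon had a log2 change of -0.48 (limma adjusted p = 0.389). It stayed at 0 in all 3 Gwiazda libraries of day 10, against 30.4 and 44.2 scaled reads in Oberon. The change of the cultivar difference between days 0 and 6 did not pass the test (limma adjusted p = 0.534).

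The microsomal omega-6-desaturase, which adds double bonds to membrane fatty acids, had 116, 26.6 and 22.9 scaled reads in Gwiazda, against 450, 1268 and 547 in Oberon (log2 difference -3.98 ± 0.81, limma adjusted p = 0.114). Phosphoglycerate mutase, an enzyme of glycolysis, had 0, 40.9 and 29.2 scaled reads in Gwiazda, against 81.3, 131 and 94.6 in Oberon (log2 difference -3.72 ± 1.41, limma adjusted p = 0.286). In Gwiazda the desaturase averaged 55.3 scaled reads on day 6, against 314 on day 0, and the mutase 23.4 on day 6, against 140 on day 0, changes that did not pass the test (limma adjusted p = 0.0797 and 0.0726). In Oberon the means were 755 on day 6, against 596 on day 0, for the desaturase and 102 on day 6, against 111 on day 0, for the mutase. Without Gwiazda library a, which had no read of the mutase, its log2 difference on day 6 was -1.53.

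A wider list holds the 33 genes for which the study printed RT-PCR primers under this pair. It includes 8 of the 9 above, not the ATP binding protein, and was not matched gene by gene to the study's own selection steps. Of the 33, 11 had a higher and 22 a lower mean in Gwiazda, with log2 differences from -7.97 to 3.81 and a median of -1.28. The study instead reports more up-regulated than down-regulated genes in its second round of selection for this pair. The reason for this discrepancy was not tested. The groups did not overlap in 30 of the 33, 11 higher and 19 lower, where 22.9% of all genes tested did not in either direction. However, none passed an adjusted p of 0.05 (smallest limma adjusted p = 0.0865). All 33 had an unadjusted p below 0.05, which is not independent evidence, as the study chose its genes on these libraries. Between days 0 and 6, 12 of the 33 had risen and 16 had fallen in Gwiazda, where 6.64% and 9.21% of the genes tested rose and fell, whereas 9 had risen and 1 had fallen in Oberon, where 4.83% and 5.93% did. These counts share the day 6 libraries with the comparison of the cultivars, and changes by day in Gwiazda were part of the study's selection.

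The change of the cultivar difference between days 0 and 6 was tested in the 12 libraries of both cultivars and days. It sets apart what was present on day 0 from what arose by day 6. No library comes from plants watered until day 6, so drought and time since day 0 cannot be told apart. Of 19075 genes, 1 passed an adjusted p of 0.05 (0.00524%), with 1214 at an unadjusted p below 0.05 (6.36%). It was the cytochrome P450 PGSC0003DMG400014954, a member of a large family of enzymes that oxidise small molecules such as hormones and defence compounds. The study had named it for Tajfun and Owacja, so these libraries took no part in the study's choice. It was singled out here by this test, so its values on days 0 and 6 are not independent evidence of the change.

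On day 6 the cytochrome P450 had 870, 719 and 628 scaled reads in Gwiazda, against 67.4, 114 and 48.5 in Oberon. On day 0 the order was the opposite, with 274, 242 and 213 scaled reads in Gwiazda, against 542, 553 and 559 in Oberon. The transcript rose by 1.62 on the log2 scale in Gwiazda (limma adjusted p = 0.00480) and fell by 2.86 in Oberon (limma adjusted p = 0.00303), and the change of the difference was 4.48 ± 0.42 (limma adjusted p = 0.00223). It also passed the limma test with scaling by total reads, with a minimum mean of 100, with limma trend and without any one of the 12 libraries (adjusted p between 0.00196 and 0.0233). The difference on day 6 alone, 3.30 ± 0.41, had an adjusted p of 0.0852 in the 6 libraries and of 0.00136 when the day 0 libraries shared the fit. On day 10 Gwiazda was again above Oberon, at 641 ± 119 and 144 ± 49.5 scaled reads (SD, n = 3 and n = 2, limma adjusted p = 0.0390). Tajfun, the other tolerant cultivar, was below its sensitive partner on day 6, with 177, 145 and 222 scaled reads in Tajfun, against 1013, 786 and 829 in Owacja.

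**Figure D2:**
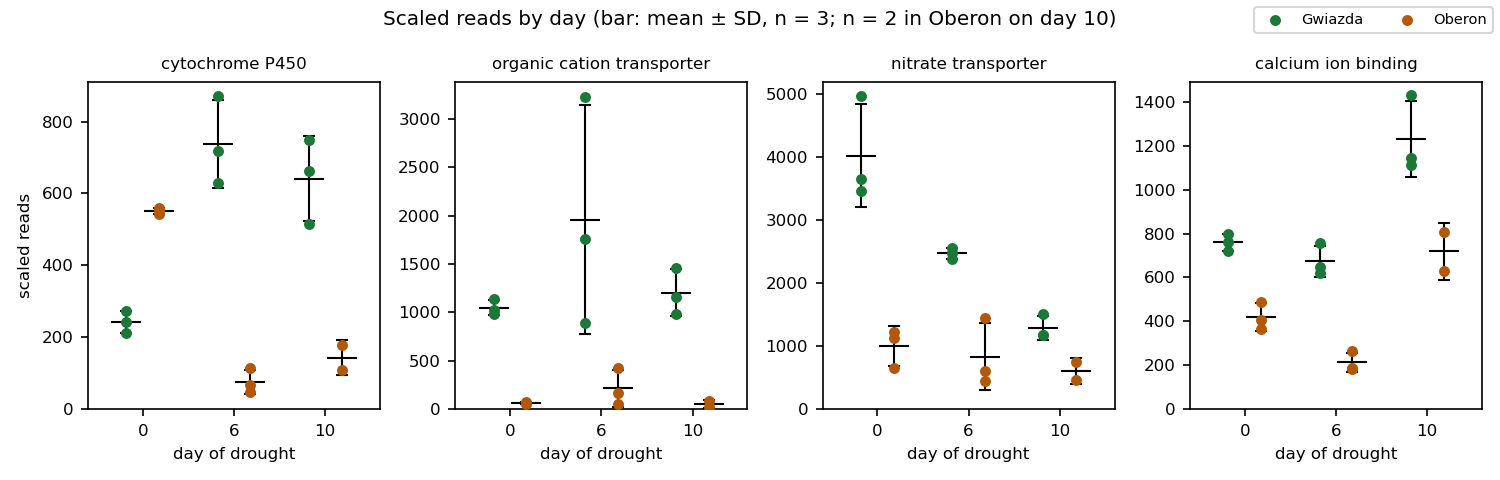
Scaled reads of 4 genes in each library (y axis, linear from 0) by day of drought (x axis), Gwiazda in green on the left and Oberon in orange on the right of each day; bars are the mean ± SD of 3 libraries, and of 2 in Oberon on day 10. The cytochrome P450 is lower in Gwiazda on day 0 and higher on day 6, while the organic cation transporter, the nitrate transporter and the calcium ion binding protein are higher in Gwiazda on every day.

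A further 14 genes were drawn by the study from Tajfun and Owacja, without the Gwiazda and Oberon libraries. CAP160 was drawn from both pairs and is counted with the 9 genes above, not here. In those libraries on day 6, 8 of the 14 were higher in Gwiazda and 6 lower, none passed an adjusted p of 0.05, and the median log2 difference was 0.24. At an unadjusted p below 0.05 there were 5 higher and 1 lower, where 6.64% and 7.91% of all genes tested were. In 5 and 1 genes the groups did not overlap, where 11.4% and 11.5% of all genes tested did not. Between Tajfun and Owacja themselves 12 of the 14 passed the test on day 6, 6 in each direction, where 5.48% of the genes tested were higher and 5.71% lower, as their choice implies.

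Besides the cytochrome P450, which had the smallest adjusted p of the 14, a pair of transporters and the calcium ion binding protein were apart between the cultivars on day 6, and both transporters already differed in watered leaves. The organic cation transporter, a carrier of small charged molecules across membranes, had 1757, 3225 and 886 scaled reads in Gwiazda, against 165, 49.9 and 427 in Oberon (log2 difference 3.57 ± 0.76, limma adjusted p = 0.121). On day 0 it had 1140, 1021 and 986 scaled reads in Gwiazda, against 47.4, 69.3 and 67.3 in Oberon, a difference of similar size and far smaller spread (log2 difference 4.09 ± 0.29, limma adjusted p = 0.00468), and it was also higher in Tajfun than in Owacja on day 6 (log2 difference 1.39, limma adjusted p = 0.00649). The nitrate transporter had 2556, 2387 and 2482 scaled reads in Gwiazda, against 452, 600.3 and 1450 in Oberon on day 6 (log2 difference 1.77 ± 0.39, limma adjusted p = 0.127), and it too differed on day 0 (log2 difference 2.02 ± 0.27, limma adjusted p = 0.0199).

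Oberon library c, the highest for both transporters among the Oberon libraries, narrowed these day 6 differences. The nitrate transporter went the other way in the second pair, with 342 ± 66.7 scaled reads in Tajfun and 2493 ± 69.0 in Owacja (SD, n = 3 each, log2 difference -2.89, limma adjusted p = 0.000300). The calcium ion binding protein had 621, 648 and 755 scaled reads in Gwiazda, against 264, 185 and 189 in Oberon (log2 difference 1.68 ± 0.29, limma adjusted p = 0.0949), and it was likewise lower in Tajfun than in Owacja (log2 difference -2.12, limma adjusted p = 0.00973). On day 0 its groups were also apart, with 761, 719 and 799 scaled reads in Gwiazda, against 367, 404 and 489 in Oberon. That log2 difference, 0.85 ± 0.20, did not pass the test (limma adjusted p = 0.0743). In the fit that included the day 0 libraries, both transporters and the calcium ion binding protein passed the test on day 6 (adjusted p between 0.00622 and 0.0239), together with CAP160, the adenylyl cyclase-associated protein and the omega-6-desaturase (adjusted p between 0.0227 and 0.0336).

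The late embryogenesis abundant protein, which shields cell components from drying, had 386, 321 and 70.9 scaled reads in Gwiazda, against 137, 234 and 448 in Oberon. The low molecular weight heat-shock protein, a chaperone, had 289, 465 and 169 in Gwiazda, against 178, 179 and 568 in Oberon. Ci21B had 722, 692 and 73.0 in Gwiazda, against 442, 1228 and 4238 in Oberon.

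In these 3 genes Gwiazda library c was the lowest of its group and Oberon library c the highest, and the groups overlapped (limma adjusted p between 0.408 and 0.918). The lipid transfer protein, which moves lipids through the cell wall, had 585, 919 and 259 scaled reads in Gwiazda, against 842, 1660 and 3617 in Oberon (log2 difference -1.72 ± 0.61, limma adjusted p = 0.263). ST225 was below every Oberon library in Gwiazda, with 234, 252 and 190 scaled reads, against 367, 337 and 1350 in Oberon (limma adjusted p = 0.351). For the lipid transfer protein and ST225 too, Gwiazda library c was the lowest and Oberon library c the highest of its group, as for cyclophilin. In Tajfun the means of these 5 genes were above those of Owacja, by log2 differences from 1.02 to 2.48.

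Of the rest, the armadillo repeat protein, of a family that mediates contacts between proteins, had 512, 403 and 465 scaled reads in Gwiazda, against 299, 294 and 293 in Oberon (log2 difference 0.63 ± 0.27, limma adjusted p = 0.331). Serine carboxypeptidase-like 19, an enzyme of a family that includes acyltransferases, and the ubiquitin-conjugating enzyme variant overlapped between the cultivars, with log2 differences of -0.04 ± 0.33 and 0.33 ± 0.29. Their transcripts fell by day 6 in Gwiazda (limma adjusted p = 0.0119 and 0.0122), and that of the ubiquitin-conjugating enzyme variant fell also in Oberon (limma adjusted p = 0.0223). The nucleotide binding protein overlapped as well (log2 difference 0.53 ± 0.74). The DEAD box RNA helicase had reads in 1 of the 6 libraries, Oberon library b, with 98.0 scaled reads, and no fold is given for it.

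**Figure D3:**
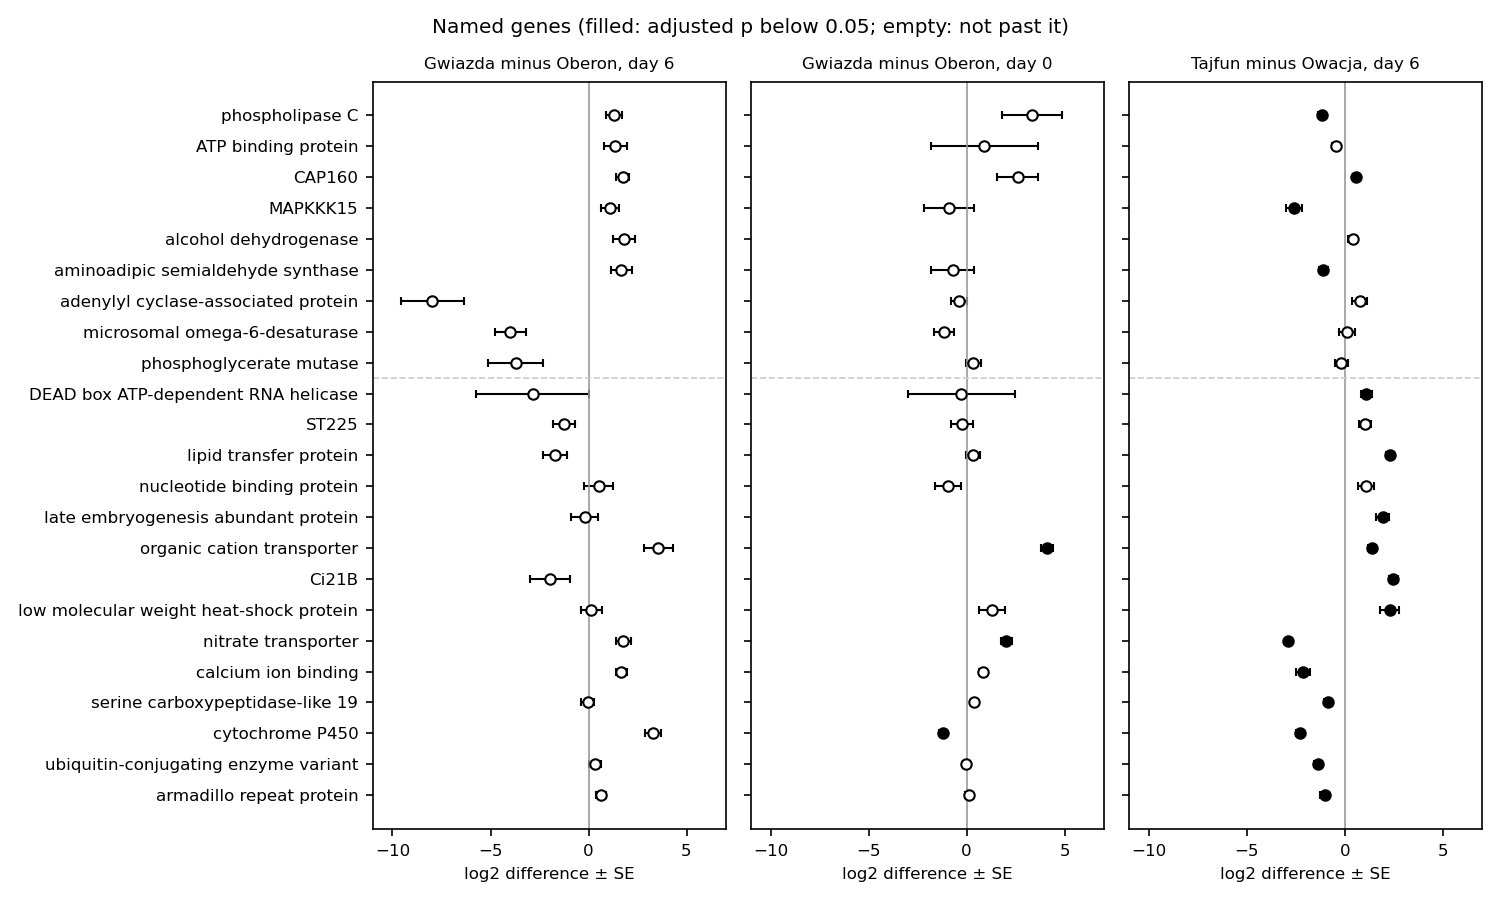
Log2 differences with their SE (x axis) for the 9 genes drawn from Gwiazda and Oberon (above the dashed line) and the 14 drawn from Tajfun and Owacja alone (below it), on day 6 and day 0 between Gwiazda and Oberon and on day 6 between Tajfun and Owacja; filled points passed an adjusted p of 0.05 and 3 genes were not tested on day 0. In the left panel no point is filled, and the cytochrome P450 is on opposite sides of 0 on days 6 and 0.

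The differences of day 6 were set beside those found in libraries that took no part in them. Of the 389 genes called between Gwiazda and Oberon on day 0, 380 were tested on day 6, and 351 of these (92.4%) differed in the same direction there, against 63.8% of all 17824 genes tested on both days. The groups were apart in that direction on day 6 for 245 of the 380 (64.5%), where 22.9% of all genes were apart in either direction. The median size of the difference was 1.57 on day 6, against 1.81 on day 0, on the log2 scale. Of the 326 genes called on day 10, 306 of 318 tested (96.2%) had the same direction on day 6, against 67.5% of all 17626 genes tested on both days. The genes called on day 0 were thus mostly apart in early drought as well, although only 4 of them passed the test again on day 6.

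The genes called in the other pair of cultivars were not shared in this way. Of the 2151 genes called between Tajfun and Owacja on day 6, 2011 were tested in Gwiazda and Oberon, and 967 of them (48.1%) had the same direction, beside 48.4% of all 17907 genes tested in both pairs. Genes higher in Tajfun were higher in Gwiazda in 491 of 982 cases, and genes lower in Tajfun were lower in Gwiazda in 476 of 1029. Of the 6 genes called between Gwiazda and Oberon, 3 were called in the same direction between Tajfun and Owacja, 2 higher and 1 lower in the tolerant cultivar, where 5.48% of the genes tested were higher and 5.71% lower.

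**Figure D4:**
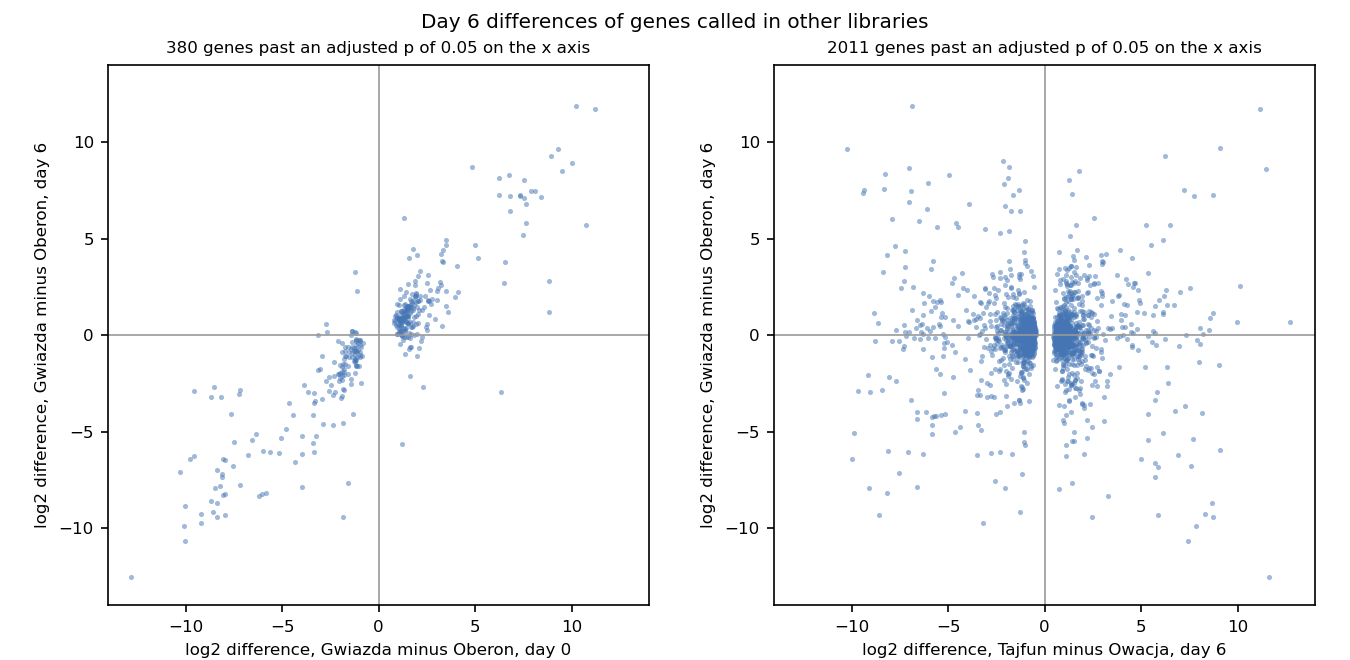
Log2 difference between Gwiazda and Oberon on day 6 (y axis) against the log2 difference between Gwiazda and Oberon on day 0 (left, x axis) and between Tajfun and Owacja on day 6 (right, x axis), for the genes past an adjusted p of 0.05 in the comparison on the x axis; each point is a gene. On the left 351 of 380 genes lie in the quadrants of like sign, on the right 967 of 2011.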

How the data were processed

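Leaf RNA was sequenced as strand-specific paired-end libraries. The authors mapped the reads with TopHat2 to the PGSC pseudomolecules (version 4.03), obtained reads per gene by Flux Capacitor, and ran DESeq on 2 groups per table. The deposited tables hold signal values, the group means of scaled reads made by the authors, for 25289 genes. Their columns of fold changes and p-values were not used. As the means are unrounded and each group stands in 3 of the 18 tables, the reads of 35 of 36 libraries could be solved for (2 for Oberon on day 10). In all groups 100% of genes with reads came out whole within 0.001, and size factors computed from them matched those of the tables. No per-sample column was left out. Totals were 34298072 to 41041276 reads per library. For a count of 0 a floor of 3 reads per library was used (counting error only, with reads taken as independent). As both mates of a fragment are counted, this floor is low.

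Reads were scaled by median-of-ratios size factors and tested with limma 3.58.1 in R 4.3.3 (voom weights, moderated test, two-sided, Benjamini-Hochberg adjustment) for genes with a mean of at least 10 scaled reads; each comparison was fitted to its own groups, and the script was tested on simulated data. Printed levels share 1 scale over the Gwiazda and Oberon libraries, and another for Tajfun and Owacja. Alternatives changed scaling, filter, weights, thresholds, the samples in the fit and left out each library. P-values measure the spread between the biological replicates. Named genes are those the study names; of identifiers without a name, the 2 largest and 2 smallest differences among genes called, without overlap and with at least 100 scaled reads in the higher group. Members and lists were chosen with earlier results of these data known.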

Additional observations from a re-analysis of the deposited data

Results flagged for a closer look

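The cytochrome P450 was singled out because its Gwiazda minus Oberon difference changed between days 0 and 6, by 4.48 on the log2 scale, past the limma test of that change (adjusted p = 0.00223). On day 6 it also ran opposite to the other pair without overlap in either, at 3.30 between Gwiazda and Oberon and -2.29 between Tajfun and Owacja.

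In 9 further genes named here every library of the tolerant cultivar lay on one side of the sensitive one in one pair and on the other side in the other pair on day 6. This difference between the pairs was not tested. The log2 difference was 1.29 in Gwiazda against Oberon and -1.18 in Tajfun against Owacja for phospholipase C, 1.09 and -2.59 for MAPKKK15, and 1.67 and -1.10 for aminoadipic semialdehyde synthase. It was 1.77 and -2.89 for the nitrate transporter, 1.68 and -2.12 for the calcium ion binding protein, and 0.63 and -1.01 for the armadillo repeat protein. ST225 had -1.26 and 1.02, the stable fibronectin type III protein had 0.30 and -0.23, and PGSC0003DMG400016442 had 2.84 and -0.48. The groups were apart in 22.9% of all genes between Gwiazda and Oberon and in 33.3% between Tajfun and Owacja. The share of all genes apart in opposite directions in both pairs is not given here. Except for the fibronectin type III protein, each of these genes was chosen by values of one pair, so being apart in that pair follows largely from the choice.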

How the results depend on the processing

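The count of 6 genes on day 6 was 4 with scaling by total reads and 6 with upper-quartile scaling, with a minimum mean of 100 and with a 2-fold minimum. It was 266 with no minimum, 188 with limma trend, 654 with 4 groups in 1 fit and 0 at an adjusted p below 0.01 (limma, 2691 genes at an unadjusted p below 0.05). Leaving out 1 library gave 0 to 3. The 1 gene whose difference changed from day 0 was also found with total-read scaling and a minimum of 100, limma trend found 6, and leaving out 1 of the 12 libraries gave 1 to 3, the 3 without Gwiazda day 0 library b. Chosen after seeing the data, limma trend called 645 genes on day 0 and 563 on day 10, and leaving out 1 library gave 13 to 444 on day 0, 0 to 326 on day 10 (0 without any one of the Gwiazda libraries, with 2648 to 2869 genes at an unadjusted p below 0.05), 721 to 2264 between Tajfun and Owacja, 1441 to 3069 by day 6 in Gwiazda and 748 to 2159 in Oberon. The causes were not tested.

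Of 528 values for single named genes, 464 kept direction and side of the threshold, 14 newly passed it (7 of them with 4 groups in 1 fit), 25 no longer passed it and 25 changed sign. With total-read scaling the stable genes of unknown function, BRE, hyoscyamine 6-dioxygenase and EMB2756 had -0.04, -0.05, -0.03 and -0.05. Leaving out 1 library moved log2 differences across 0 for 11 genes: -0.07 to 0.97 for the nucleotide binding protein, -0.65 to 0.56 for the late embryogenesis abundant protein, -0.19 to 0.65 for the low molecular weight heat-shock protein, -0.35 to 0.23 for serine carboxypeptidase-like 19 and -0.59 to 0.36 for RAB18. For stable genes it gave -0.14 to 0.18 (unknown function), -0.15 to 0.12 (BRE), -0.11 to 0.13 (hyoscyamine 6-dioxygenase), -0.11 to 0.14 (EMB2756), 0.00 to 0.55 (transcription factor IIB) and -0.09 to 0.33 (Golgi SNARE 11).
No paired analysis was possible because the recovered libraries carry no replicate number.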

Other observations

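Some genes had no read in 1 cultivar on day 6 and at least 20 reads in each library of the other. There were 64 such genes without reads in the 3 Gwiazda libraries and 56 without reads in the 3 Oberon libraries. Of the 64, 33 also had no reads in Gwiazda on day 0, 40 none on day 10 and 30 none on either day. Of the 56, 39 had no reads in Oberon on day 0, 46 none on day 10 and 36 none on either day. The adenylyl cyclase-associated protein belongs to those that had reads in watered Gwiazda leaves. None of these genes passed the limma test on day 6 (smallest adjusted p = 0.0852), and 64 and 55 of them were at an unadjusted p below 0.05, as their choice by these values implies. All reads were mapped to 1 reference genome, so for the 30 and 36 genes without reads on any of the 3 days an absent transcript and a sequence that did not map cannot be told apart. The rest had reads in the same cultivar on day 0 or day 10.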
